A study of Mus musculus with 24 samples.

Results

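A set of 10 mouse genes, of 55487 distinct genes in the count table, was followed across 6 groups of blood progenitors: Kmt2a, Mllt1, Mllt3, Mllt10, Dot1l, Aff1, Aff4, Men1, Psip1 and Supt6. They were chosen by name for what they encode, with earlier results of these data known. The set covers the endogenous genes of both partners of the MLL::ENL fusion, cofactors of MLL, and members of the DOT1L and super elongation complexes. All 10 passed the filter on low counts and were among the 23059 genes tested.

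MLL, the product of Kmt2a, is a histone H3 lysine 4 methyltransferase that keeps HOX genes active in blood stem cells. It is held at its targets with menin (Men1) and LEDGF (Psip1). In leukaemia, MLL translocations join its amino-terminal part to proteins such as ENL (Mllt1), AF9 (Mllt3), AF10 (Mllt10) and AF4 (Aff1), which belong to complexes that release paused RNA polymerase II or recruit the H3 lysine 79 methyltransferase DOT1L. The fusion thereby brings elongation factors to MLL targets, and menin and DOT1L are both drug targets in such leukaemias.

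The series title concerns fetal protection from MLL::ENL leukaemia and MLL3. The design describes a mouse Tet-off model of human MLL::ENL (ME), and the libraries are bulk RNA-seq of cells labelled LSK, while the design text names Lineage-KIT+ progenitors. At postnatal day 0 (P0), liver cells came from WT mice and from mice with ME induced at E10.5, called P0 ME here. At day 28 (P28), bone marrow cells came from WT mice, from mice with ME induced at E10.5, from mice with ME induced at P0, and from a group labelled ME RLT Vav Txp, also with ME induced at E10.5. The labels do not expand RLT, Vav or Txp and name neither the strain nor the promoter that drives ME. Each group had 4 libraries, which the design calls biological replicates. Since every liver sample is from P0 and every marrow sample from P28, age cannot be told apart from tissue.

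In GENCODE M21 on GRCm38, Kmt2a (ENSMUSG00000002028) lies on chromosome 9 from 44803355 to 44881296 on the minus strand, and Mllt1 (ENSMUSG00000024212) on chromosome 17 from 56892611 to 56935415 on the minus strand. Both are protein-coding, with 16670 and 3918 bases of merged exons. The other 8 genes are protein-coding too, with merged exons of 3835 (Men1) to 13450 (Aff4) bases. Exons of another gene overlap 2.27% of the exon length of Kmt2a (AC061963.1), 12.68% of Mllt10 (Dnajc1), 9.5% of Psip1 (Snapc3) and 3.41% of Supt6 (Sdf2). The strand setting of the counting is not given in the sources used here, so reads in these overlaps cannot be told apart. The promoters of both fusion partners are shown because they belong to the endogenous mouse genes whose transcripts are counted here. Each is the 250 bases before the RefSeq start in GRCm38.p6, 5′ to 3′ on the gene's strand, with every CG dinucleotide, the unit that the CXXC domain of MLL binds when unmethylated, in capitals. The windows are chr9:44881290-44881539 for Kmt2a and chr17:56935389-56935638 for Mllt1, both on the minus strand.
Kmt2a: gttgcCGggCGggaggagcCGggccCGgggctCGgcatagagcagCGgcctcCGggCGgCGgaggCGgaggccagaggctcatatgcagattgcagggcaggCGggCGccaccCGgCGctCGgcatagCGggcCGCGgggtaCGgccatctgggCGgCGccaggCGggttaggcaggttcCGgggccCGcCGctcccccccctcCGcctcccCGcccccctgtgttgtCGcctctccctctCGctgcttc
Mllt1: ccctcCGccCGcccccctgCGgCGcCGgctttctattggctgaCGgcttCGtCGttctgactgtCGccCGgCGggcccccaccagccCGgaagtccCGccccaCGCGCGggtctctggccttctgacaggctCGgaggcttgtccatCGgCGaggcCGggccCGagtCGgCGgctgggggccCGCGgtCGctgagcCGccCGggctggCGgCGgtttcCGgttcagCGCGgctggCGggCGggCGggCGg
Kmt2a holds 29 CG dinucleotides and Mllt1 37, against a median of 6 over 32851 windows of the same length. Of all windows, 6.78% hold at least as many as Kmt2a and 2.2% at least as many as Mllt1. The letters GGGCGG, searched on both strands, occur 4 times in the Kmt2a window and 5 times in the Mllt1 window, and at least once in 32.7% of all windows. A match is a description of the letters only.

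Library totals ran from 31233688 to 89774511 counts, and the smallest count of any of the 10 genes in any library was 598 (Dot1l), so counting error was small beside the spread between libraries. Kit and Ly6a, which encode the KIT and Sca-1 proteins that define LSK cells, were present in every library, at 169 to 1451 and 71.2 to 337 CPM (counts scaled to library size). Groups differed in spread and in markers of mature cells. The biological coefficient of variation was 102% in P0 WT and 27.4% in P0-induced ME at P28. In the 3 groups holding a library over 0.5 (root mean square log2 distance) from the rest of its group, the farthest were P0 WT library 4, P0 ME library 1 and RLT Vav Txp library 1. Markers of 7 cell types (7 or 8 genes each) were summed, and the ones at 0 throughout a group were hepatocyte markers (Ttr and Serpina1a in P28 WT, Alb and Serpina1a in E10.5-induced ME at P28). Summed neutrophil markers ran from 895 to 17260 CPM in P0 WT and from 822 to 35577 in P0 ME, and summed erythroid markers from 492 to 8887 and from 249 to 7336.

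Values below are CPM after TMM scaling, and only CPM per kilobase of exon compares levels between genes. By mean CPM per kilobase over the 24 libraries the order was Psip1 (46.0), Men1 (31.5), Mllt1 (21.5), Supt6 (10.1), Mllt10 (8.77), Mllt3 (8.02), Aff1 (5.52), Aff4 (4.34), Kmt2a (3.60) and Dot1l (3.41). Mllt10 and Psip1 varied least, with a highest library 2.04 and 2.12 times the lowest. Supt6, Mllt1 and Kmt2a varied most, by 6.79, 6.38 and 6.28 times. The plot of CPM by group shows every library.

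**Figure D1:**
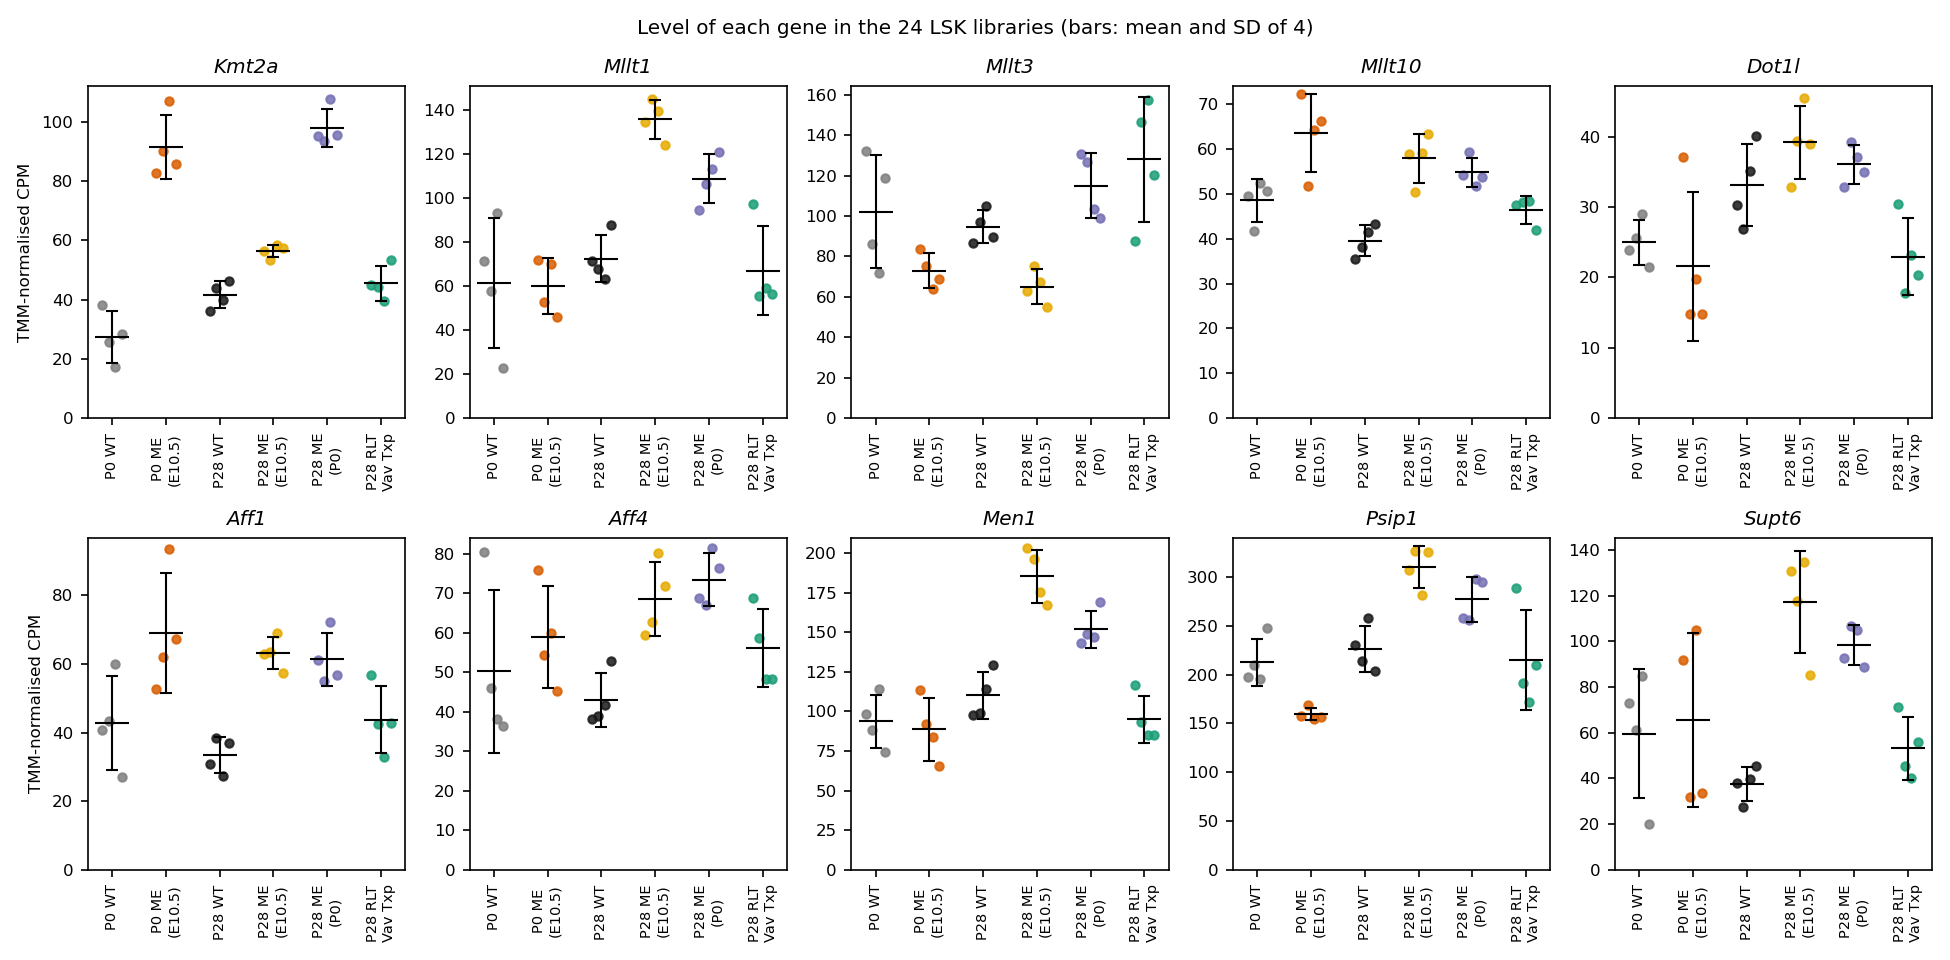
TMM-normalised CPM (vertical axis, from 0) of each gene in the 24 libraries, by group (horizontal axis; E10.5 or P0 in brackets is the time of induction), with bars for the mean and SD of 4. Kmt2a ran from 82.8 to 108 CPM in the libraries of P0 ME and of P0-induced ME at P28, and from 17.1 to 58.4 CPM in the other 4 groups.

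In liver cells at P0, Kmt2a was the one gene of the 10 that passed the test between ME and WT. Its level was 38.1, 25.8, 17.1 and 28.3 CPM in the P0 WT libraries and 82.8, 90.2, 107 and 85.7 CPM in the P0 ME libraries. Every ME library stood above every WT library, and the lowest WT library was number 3. Kmt2a thus rose from 27.3 ± 8.64 to 91.5 ± 10.9 CPM (SD, n = 4), a 3.35-fold difference or a log2 fold change of 1.74 (SE 0.18, adjusted p = 4.16e-06, edgeR quasi-likelihood test with Benjamini-Hochberg adjustment over 23059 genes, as for all adjusted p-values here unless another tool is named). A gene is called when this adjusted p is under 0.05. Over all genes, 0.642% were called in this comparison. Mllt1, which encodes the other partner, was at 71.2, 58, 93.2 and 22.7 CPM in P0 WT and 71.9, 52.7, 70 and 46.1 CPM in P0 ME. The WT libraries spanned a wider range than the ME libraries and enclosed them, and the log2 fold change was -0.03 (95% interval -0.57 to 0.51, adjusted p = 0.979). The table holds 1 total per mouse gene and none for the human transgene, so whether transgene reads were counted under Kmt2a or Mllt1 was not tested, here or in any comparison below.

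Among the cofactors, Psip1 was at 198, 210.0, 196 and 248 CPM in P0 WT and 157, 168, 155 and 157 CPM in P0 ME. The groups did not overlap, which held for 3.74% of all genes, but the log2 fold change of -0.42 was not called (SE 0.14, adjusted p = 0.169). Men1 gave -0.08 (adjusted p = 0.878). Of the elongation and DOT1L genes, the log2 fold changes were 0.69 for Aff1, 0.39 for Mllt10, 0.23 for Aff4, 0.14 for Supt6, -0.21 for Dot1l and -0.49 for Mllt3, with adjusted p-values of 0.128 (Aff1) to 0.908 (Supt6). Supt6, for the histone chaperone that travels with RNA polymerase II, varied widely within both groups, with 72.7, 61, 84.8 and 19.8 CPM in P0 WT and 91.6, 31.9, 105 and 33.6 CPM in P0 ME. Libraries 1 and 3 of P0 ME were high and 2 and 4 low, and P0 WT library 4 was below all of them. The median log2 fold change was 0.06 over the 10 genes and -0.01 over all genes tested. The Kmt2a call held in 8 of 8 fits that each left out 1 library and was lost when only the P0 groups were fitted (log2 fold change 1.74, adjusted p = 0.0796). In bulk samples a higher share of cells of a type and more RNA per cell cannot be told apart, and the part of the mature-cell markers in these values was not tested.

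At P28, after induction at E10.5, 7 of the 10 genes were called against WT, all higher, where 12.3% of all genes were called and 7.82% were called higher. The median log2 fold change was 0.61 over the 10 genes and -0.10 over all genes tested. In the better expressed genes (log2 CPM of 3 or more on average), where all 10 lie, 24% were called and the median was 0.19. In 9 of the 10, all but Dot1l, the groups did not overlap, against 28.2% of all genes. Summed neutrophil markers were also higher without overlap (1014 to 1809 CPM against 705 to 934 in P28 WT), as were B-lymphoid markers (448 to 635 against 287 to 383), and macrophage markers were lower (47.7 to 75.2 against 75.6 to 105). By mean, the neutrophil rise lay mostly in Mpo (954 against 418 CPM), with Elane, Ltf and Ngp also higher. Prtn3 (156 against 174), Ctsg (36.2 against 37.1), S100a8 (36.8 against 51.8) and S100a9 (30.3 against 37.5) were lower. The B-lymphoid rise lay mostly in Dntt (510 against 262), with Pax5 also higher (0.17 against 0.022) and the rest of that list lower. Csf1r of the macrophage list was higher (16.9 against 12.8). The part of these markers in the values was not tested.

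Of the fusion partners, Mllt1 was at 71.3, 67.9, 63 and 87.7 CPM in P28 WT and 134, 145, 139.6 and 124 CPM in E10.5-induced ME. All ME libraries lay well above the highest WT library, number 4. Mllt1 rose 1.87-fold, a log2 fold change of 0.90 (SE 0.26, adjusted p = 0.0253). Kmt2a was at 36.2, 44.1, 39.9 and 46.4 CPM in P28 WT and 56.5, 53.4, 58.4 and 57.3 CPM in E10.5-induced ME. The groups did not overlap and the libraries within each were close together, but the log2 fold change of 0.44 was not called (SE 0.17, adjusted p = 0.0975). The test of this value against that at P0 is given with the interaction term.

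Both MLL cofactors rose. Men1, for menin, was at 97.8, 99.1, 114 and 129.6 CPM in P28 WT and 203, 196, 175 and 167 CPM in E10.5-induced ME, a log2 fold change of 0.75 (SE 0.16, adjusted p = 0.00543). Psip1, for LEDGF, was at 230.1, 214, 258 and 204 CPM in P28 WT and 307, 327, 282 and 326 CPM in E10.5-induced ME, a log2 fold change of 0.46 (SE 0.14, adjusted p = 0.0339). In both genes the lowest ME library was above the highest WT library.

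The elongation scaffolds of the super elongation complex rose as well. Aff1 was at 30.8, 38.5, 27.4 and 37 CPM in P28 WT and 63, 63.4, 68.9 and 57.3 CPM in E10.5-induced ME, a log2 fold change of 0.92 (SE 0.21, adjusted p = 0.0073). Aff4, for the scaffold AFF4 that binds P-TEFb, was at 38.2, 38.9, 41.7 and 52.9 CPM in P28 WT and 59.4, 62.8, 80.3 and 71.9 CPM in E10.5-induced ME, a log2 fold change of 0.68 (SE 0.21, adjusted p = 0.0368). Supt6, which is outside that complex, had the largest log2 fold change of the 10 in this comparison, with 37.8, 27.3, 39.6 and 45.3 CPM in P28 WT and 131, 117, 134 and 85.4 CPM in E10.5-induced ME. ME library 4 was the lowest of its group and still far above the highest WT library. Supt6 rose 3.12-fold, a log2 fold change of 1.64 (SE 0.36, adjusted p = 0.00642).

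Of the DOT1L complex genes other than Mllt1, 1 of 3 was called. Mllt10, for AF10, which binds DOT1L directly, rose from 39.6 ± 3.48 to 57.9 ± 5.45 CPM (SD, n = 4), a log2 fold change of 0.55 (SE 0.14, adjusted p = 0.0111). Dot1l itself averaged 33.1 ± 5.78 and 39.2 ± 5.17 CPM, with overlapping groups and a log2 fold change of 0.24 (95% interval -0.24 to 0.73, adjusted p = 0.552). Mllt3, for AF9, the close relative of ENL, was at 86.6, 97.1, 105 and 89.7 CPM in P28 WT and 62.8, 75.4, 67.1 and 55 CPM in E10.5-induced ME. It was the one gene of the 10 with all ME libraries below all WT libraries, and its log2 fold change of -0.54 was not called (SE 0.19, adjusted p = 0.0574), although 14 of 15 alternatives did call it. It was called in 0 of 8 fits that left out 1 library (adjusted p = 0.0652 to 0.162).

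Most of these calls depended on how the counts were adjusted. With per-library offsets for a smooth trend on transcript length and GC content, 3 of the 10 genes were called: Supt6 (1.12, adjusted p = 0.00716) and Men1 (0.38, adjusted p = 0.0453) as higher and Mllt3 (-0.82, adjusted p = 0.015) as lower. Mllt1 was then at 0.46 (adjusted p = 0.103), Aff1 at 0.38, Psip1 at 0.32, Aff4 at 0.27 and Mllt10 at 0.23, while Kmt2a (-0.11) and Dot1l (-0.43) turned to below 0. The same offsets moved the calls over all genes from 1804 higher of 2827 (63.8%) to 760 of 1506 (50.5%), and plain library totals moved them to 750 of 2251 (33.3%). DESeq2's relative log expression (RLE) size factors gave 52.2% higher. Without offsets, Supt6, Men1 and Aff1 stayed called in 8 of 8 fits that each left out 1 library, while Mllt1, Aff4 and Psip1 lost the call in 6 of 8 and Mllt10 in 2 of 8. The count was 3 without P28 WT library 1 or 2.

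**Figure D2:**
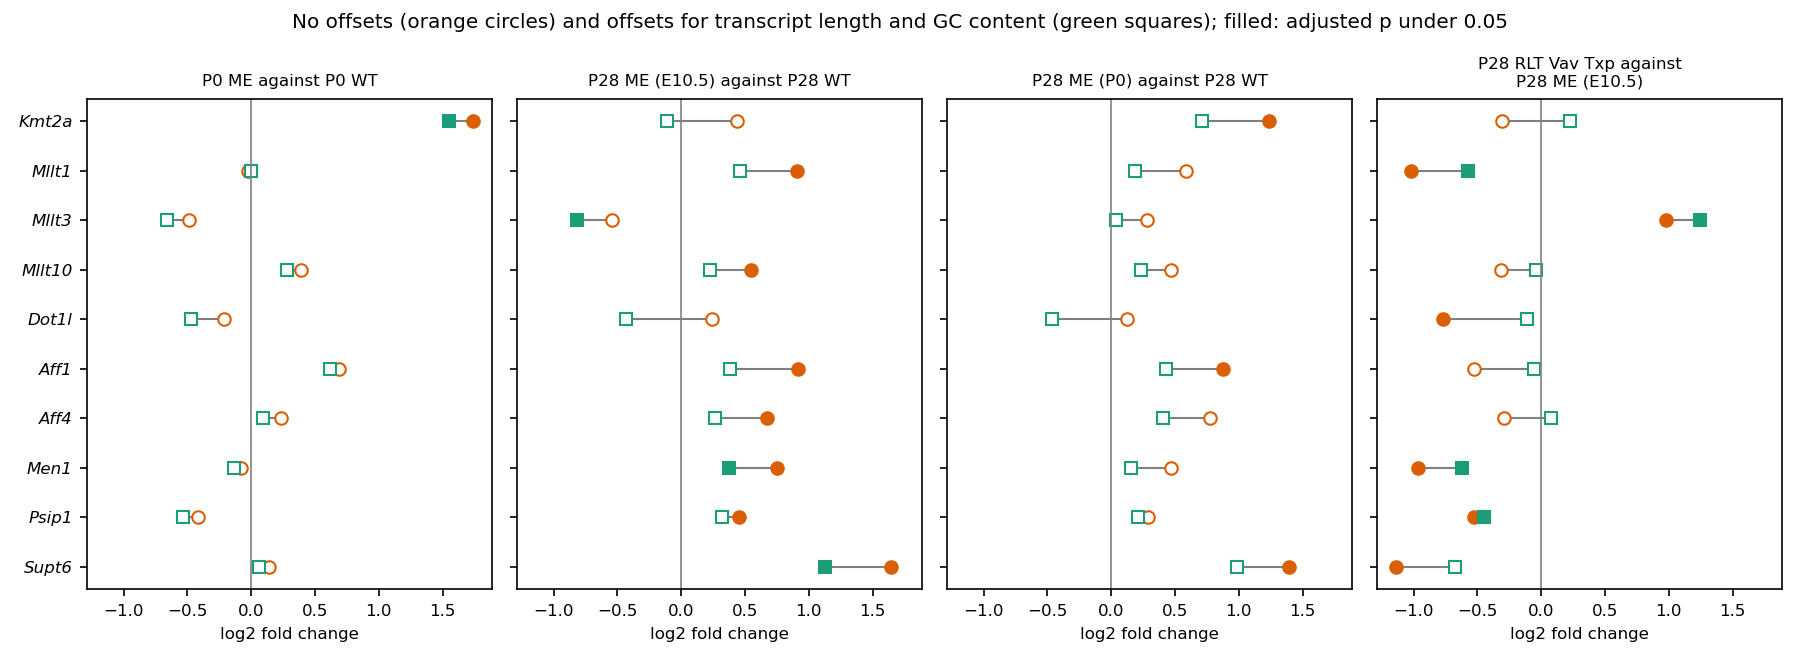
Log2 fold change (horizontal axis) of the 10 genes (rows) in 4 comparisons, without offsets (orange circles) and with offsets for transcript length and GC content (green squares), filled where the adjusted p was under 0.05. Kmt2a at P0 stayed called (1.74 and 1.55), whereas at P28 the values against WT moved to the left and the filled symbols fell from 7 to 3 after E10.5 induction and from 3 to 0 after P0 induction.

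After induction at P0, 3 of the 10 genes were called against WT at P28, all higher. Of the better expressed genes 3.17% were called. Of all genes 1.57% were called and 0.494% called higher. Of all calls 31.5% were higher, and 13.8% with RLE size factors. Kmt2a was at 95.1, 93.5, 108 and 95.6 CPM in P0-induced ME, against 36.2 to 46.4 CPM in P28 WT. Every ME library lay far above every WT library. Kmt2a rose 2.35-fold, a log2 fold change of 1.23 (SE 0.17, adjusted p = 0.000873). Supt6 was at 92.8, 107, 105 and 88.7 CPM, a log2 fold change of 1.39 (SE 0.36, adjusted p = 0.0499), and Aff1 at 61, 55.1, 72.3 and 56.9 CPM, a log2 fold change of 0.88 (SE 0.21, adjusted p = 0.0426). Summed erythroid markers (155 to 233 CPM against 342 to 432 in P28 WT) and macrophage markers (46.3 to 61.8 against 75.6 to 105) were lower without overlap in this group, and their part was not tested. For Supt6 and Aff1 the ME libraries all lay above the WT range of 27.3 to 45.3 and 27.4 to 38.5 CPM.

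The other 7 genes were not called, although all 10 values were above 0 and 7 of the 10 groups did not overlap, against 24.8% of all genes. The values were 0.77 for Aff4 (adjusted p = 0.055), 0.58 for Mllt1 (0.21), 0.47 for Mllt10 (0.0644), 0.47 for Men1 (0.11), 0.29 for Psip1 (0.243), 0.28 for Mllt3 (0.417) and 0.12 for Dot1l (0.825). The median over the 10 genes was 0.53, against -0.09 over all genes tested and 0.15 over the better expressed genes. With length and GC offsets none was called, with Kmt2a at 0.71 (adjusted p = 0.105), Supt6 at 0.98 (0.0517) and Aff1 at 0.43 (0.233). Without P0 WT library 4, P0 ME library 1 and RLT Vav Txp library 1, the count was 8 genes, and Aff1 and Supt6 each lost the call in 7 of 8 fits that left out 1 library, keeping it when P28 WT library 4 was the one left out.

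In the RLT Vav Txp group none of the 10 genes was called against P28 WT by edgeR, where 4.12% of all genes were called. Mllt3 and Dot1l had an unadjusted p under 0.05, making 2 of 10. DESeq2 and limma gave 0 and 0 called. Kmt2a was at 44.8, 44.2, 39.4 and 53.5 CPM, overlapping the WT range, with a log2 fold change of 0.13 (95% interval -0.23 to 0.48). Mllt1 was at 97.3, 55.5, 59.1 and 56.2 CPM, where library 1 stood far above the other 3, and the log2 fold change was -0.11 (95% interval -0.65 to 0.43). Mllt3 was at 87.6, 146, 158 and 120.5 CPM and gave 0.44 (adjusted p = 0.237), and Dot1l gave -0.53 (0.274). The log2 fold changes of the other 6 ran from -0.21 (Men1) to 0.50 (Supt6), and the groups of all 10 genes overlapped, where 11.5% of all genes did not. Without the same 3 libraries 2 genes were called. Summed LSK markers were lower than in WT without overlap (2011 to 2654 CPM against 3175 to 3674). Higher without overlap were markers of macrophages (729 to 3132 against 75.6 to 105), neutrophils (2068 to 6786 against 705 to 934), erythroid cells (623 to 1113 against 342 to 432), mast cells and basophils (84.9 to 199 against 7.87 to 43.4) and hepatocytes (279 to 718 against 226 to 249). The hepatocyte sum was mostly Trf, at a mean of 501 CPM against 217 in P28 WT, and Afp was higher (30 against 17.9). Apoa1 (0.079 against 0.27) and Apoa2 (0.47 against 0.53) were lower, and Alb, Ttr and Serpina1a averaged 1.32 CPM or less. The part of all these markers in the values of the 10 genes was not tested.

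**Figure D3:**
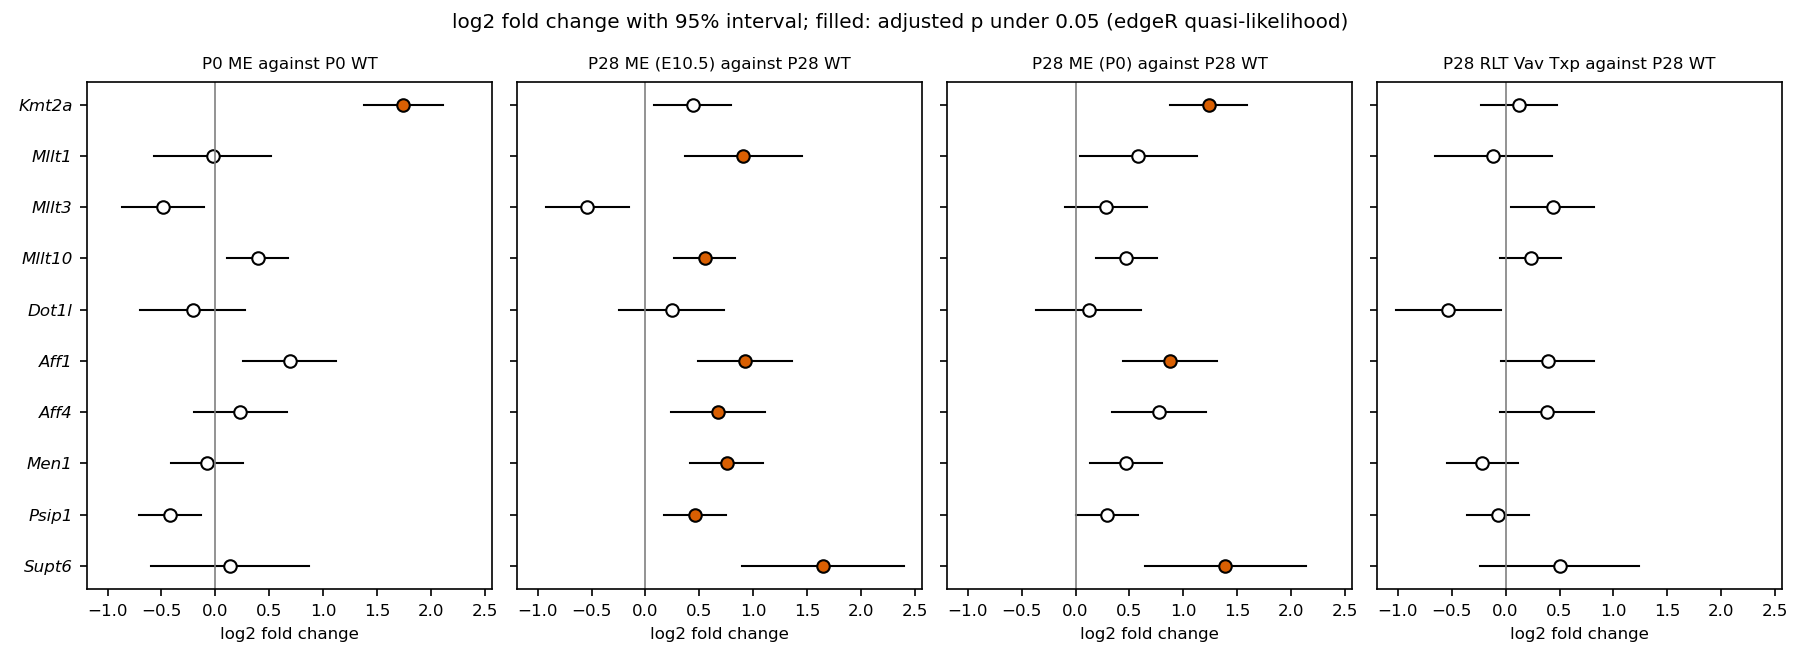
Log2 fold change of ME against WT (horizontal axis) with the 95% interval for each gene (rows) in 4 comparisons, filled where the adjusted p was under 0.05. Kmt2a was called at P0 and after P0 induction, 7 genes were called after E10.5 induction at P28, and none in the RLT Vav Txp group.

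The ME effect after E10.5 induction was compared between P28 and P0 by an interaction term, which also spans the change of tissue. It was called for 2 of the 10 genes, where 0.72% of all genes were called. Of those calls 65.1% were above 0, against 43.0% with RLE size factors and 11.0% with plain library totals. Kmt2a had the smaller ME effect at P28, with a difference of -1.31 on the log2 scale (SE 0.24, adjusted p = 0.017), from 1.74 at P0 to 0.44 at P28. Psip1 went from -0.42 at P0 to 0.46 at P28, a difference of 0.88 (SE 0.20, adjusted p = 0.0407). Supt6 (1.50, adjusted p = 0.137), Mllt1 (0.93, 0.207) and Men1 (0.83, 0.0746) had differences above 0 that were not called, and the other 5 ran from -0.05 (Mllt3) to 0.45 (Dot1l). Fitting only the 4 groups compared ended both calls (Kmt2a adjusted p = 0.0591, Psip1 0.0585). The Kmt2a call was lost when library 1 or 2 of E10.5-induced ME was left out, and the Psip1 call in 13 of 16 such fits. With length and GC offsets Kmt2a was at -1.66 (adjusted p = 0.0116) and Psip1 at 0.85 (0.0272).

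Between the times of induction, both at P28, none of the 10 genes was called by edgeR, and 0.0477% of all genes were. Kmt2a and Mllt3 had an unadjusted p under 0.05, and DESeq2 called 2 of the 10 and limma 4. Kmt2a averaged 97.9 ± 6.48 CPM after P0 induction and 56.4 ± 2.12 CPM after E10.5 induction (SD, n = 4). The 2 sets of libraries did not overlap, and the log2 fold change was 0.80 (95% interval 0.44 to 1.15, adjusted p = 0.102). Mllt3 was at 130.5, 127, 103 and 98.9 CPM after P0 induction, all above the 55 to 75.4 CPM after E10.5 induction, with a log2 fold change of 0.82 (95% interval 0.44 to 1.20, adjusted p = 0.136). Mllt1 was the third gene without overlap, at -0.32 (adjusted p = 1), and 11.8% of all genes showed none. The other 7 ran from -0.29 (Men1) to 0.10 (Aff4). Summed erythroid markers (155 to 233 CPM against 323 to 560) and B-lymphoid markers (279 to 432 against 448 to 635) were lower after P0 induction without overlap, and their part was not tested.

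Between the RLT Vav Txp group and the other group induced at E10.5, 6 of the 10 genes were called, 5 lower and 1 higher, where 17.9% of all genes were called, 9.38% lower and 8.5% higher. Of the better expressed genes 30.9% were called, and their median log2 fold change was -0.18, against -0.53 over the 10 genes. Men1 fell from 185 ± 17 to 94.9 ± 15 CPM (SD, n = 4), a log2 fold change of -0.97 (SE 0.16, adjusted p = 0.000343). Mllt1 fell to a range of 55.5 to 97.3 CPM, against 124 to 145 CPM, a log2 fold change of -1.02 (SE 0.26, adjusted p = 0.00999). Psip1 fell too, at -0.53 (SE 0.14, adjusted p = 0.0119), although RLT Vav Txp library 1 reached into the range of the other group. Mllt3 went the other way and rose 1.97-fold, a range of 87.6 to 158 CPM against 55 to 75.4 CPM and a log2 fold change of 0.98 (SE 0.19, adjusted p = 0.00111). Mllt3 and Men1 were called in all 12 alternatives and in 8 of 8 fits that left out 1 library. Supt6 (-1.14, adjusted p = 0.0296) and Dot1l (-0.77, 0.0264) were the other lower calls, and length and GC offsets ended both (Supt6 -0.68, adjusted p = 0.0663, and Dot1l -0.11, 0.783). In 7 of the 10 genes the groups did not overlap, against 25.7% of all genes. The values of the remaining genes were -0.53 for Aff1, -0.32 for Mllt10, -0.31 for Kmt2a and -0.29 for Aff4. Summed LSK markers were lower in the RLT Vav Txp group without overlap (2011 to 2654 CPM against 3447 to 4053), as were B-lymphoid markers (122 to 412 against 448 to 635). Macrophage (729 to 3132 against 47.7 to 75.2), neutrophil (2068 to 6786 against 1014 to 1809), erythroid (623 to 1113 against 323 to 560), mast cell and basophil (84.9 to 199 against 15.8 to 32.5) and hepatocyte markers (279 to 718 against 174 to 256) were higher without overlap. The hepatocyte sum was mostly Trf (mean 501 against 201 CPM), with Alb, Afp and Apoa2 also higher and Apoa1 lower (0.079 against 0.18). The part of all these markers in these differences was not tested. The count was 3 without RLT Vav Txp library 3, 2 without library 4, and 4 without library 2 or without E10.5-induced ME library 2 or 3.

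From P0 liver to P28 bone marrow, 1 of the 10 genes was called in WT, where 7.68% of all genes were called, 40.6% of them higher (56.8% with plain library totals). Kmt2a was higher at P28, 36.2, 44.1, 39.9 and 46.4 against 38.1, 25.8, 17.1 and 28.3 CPM, with P0 WT library 1 inside the P28 range. The log2 fold change was 0.61 (SE 0.17, adjusted p = 0.0297). The call held in 3 of 8 fits that left out 1 library and was lost with length and GC offsets (0.44, adjusted p = 0.205). The other 9 ran from -0.67 (Supt6) to 0.41 (Dot1l). Summed erythroid (342 to 432 CPM against 492 to 8887), macrophage (75.6 to 105 against 131 to 1369) and mast cell and basophil markers (7.87 to 43.4 against 586 to 5857) were lower at P28 without overlap, and their part was not tested.

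In E10.5-induced ME, 5 of the 10 genes were called between the same ages, where 18.2% of all genes were called, 53.7% of them higher (38.7% with length and GC offsets). Of the better expressed genes 29.9% were called, and their median log2 fold change was 0.16, against 0.53 over the 10 genes. Kmt2a fell to a range of 53.4 to 58.4 CPM at P28, against 82.8 to 107 CPM at P0, a log2 fold change of -0.70 (SE 0.17, adjusted p = 0.00635). Mllt1 rose 2.26-fold, to a range of 124 to 145 CPM against 46.1 to 71.9 CPM, with a log2 fold change of 1.17 (SE 0.27, adjusted p = 0.00326). Men1 (1.06, adjusted p = 1e-04) and Psip1 (0.96, 5.93e-05) rose. The ages did not overlap in these 4 genes, against 25.4% of all genes. Dot1l rose by 0.86 (0.0136) with P0 ME library 1, at 37.1 CPM, inside the P28 range, and lost the call without P0 ME library 2 or 4 and with length and GC offsets (0.24, adjusted p = 0.469). Kmt2a, Mllt1, Men1 and Psip1 were called in all 15 alternatives and in 8 of 8 fits that left out 1 library. The values of the other 5 were 0.84 for Supt6, 0.22 for Aff4, -0.13 for Aff1, -0.14 for Mllt10 and -0.17 for Mllt3. Length and GC offsets brought Aff1 (-0.63, adjusted p = 0.0105) and Mllt10 (-0.41, 0.0477) past the threshold as lower. Macrophage markers (47.7 to 75.2 CPM against 123 to 1561 at P0) and mast cell and basophil markers (15.8 to 32.5 against 45.3 to 590.0) were lower at P28 without overlap, and their part was not tested.

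**Figure D4:**
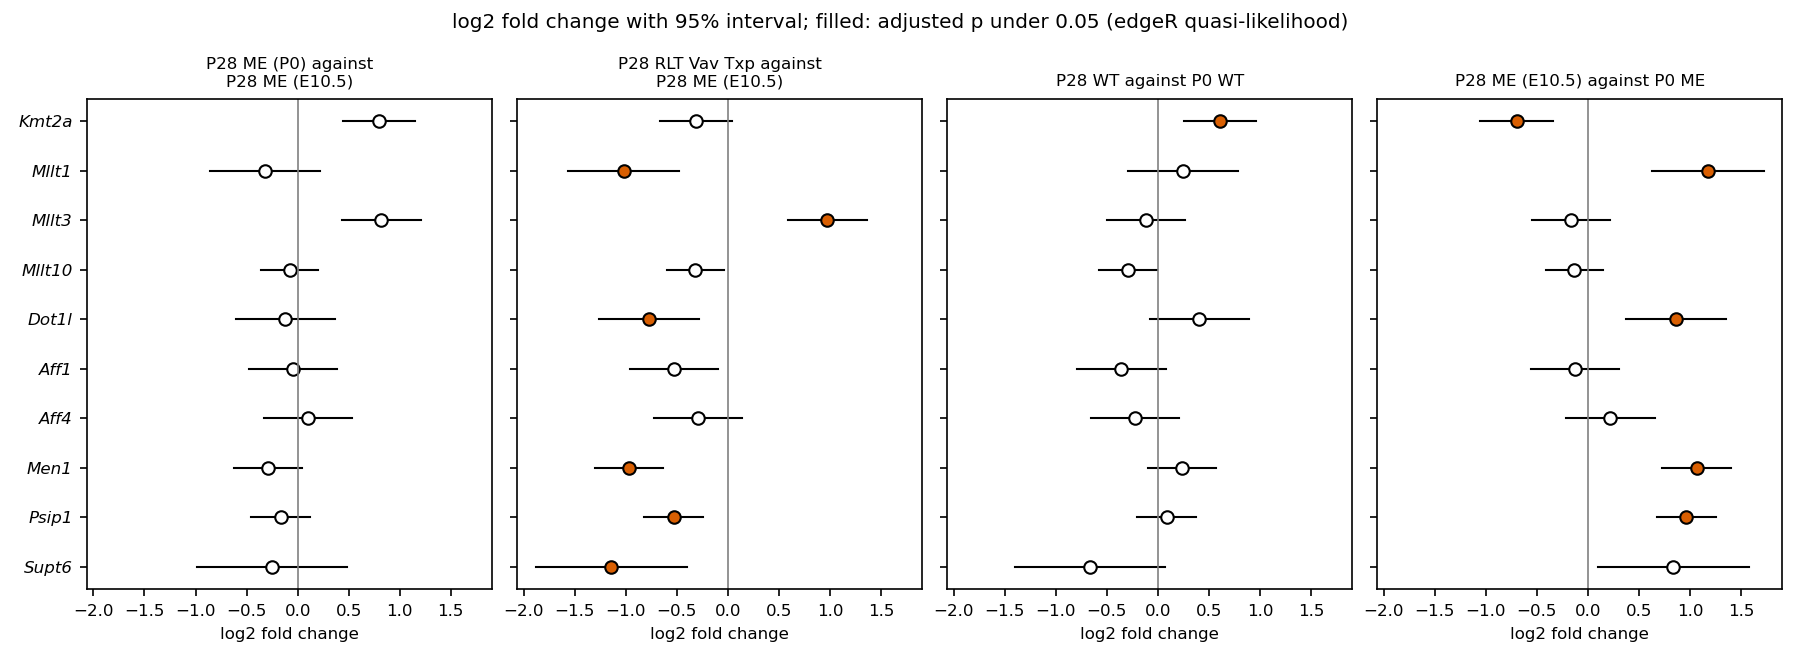
Log2 fold change (horizontal axis) with the 95% interval for each gene (rows) between the ME groups at P28 and between P28 and P0, filled where the adjusted p was under 0.05. Mllt3 stood to the right of 0 and Mllt1, Men1, Psip1, Dot1l and Supt6 to the left in the RLT Vav Txp group against E10.5-induced ME, and Kmt2a fell while Mllt1, Men1, Psip1 and Dot1l rose between P0 ME and P28 ME.

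Ordered by mean, the groups gave different profiles for the genes. For Kmt2a the order ran from P0 WT through P28 WT, RLT Vav Txp and E10.5-induced ME at P28 to P0 ME and P0-induced ME. The 4 lower groups each overlapped the next, E10.5-induced ME did not overlap P0 ME, and the top pair overlapped. For Mllt1 the 4 lower groups overlapped in turn, from P0 ME (60.1 ± 12.8 CPM) to P28 WT, P0-induced ME did not overlap P28 WT but reached below RLT Vav Txp library 1, and E10.5-induced ME was clear of all other groups. Men1 had the same order of groups as Mllt1, with its upper pair overlapping. For Mllt3 the lowest groups were both E10.5-induced ME groups (65.1 ± 8.51 CPM at P28 and 73 ± 8.53 at P0, SD, n = 4), which overlapped each other, and the second did not overlap P28 WT. For Psip1, P0 ME (159 ± 6.27 CPM) was lowest and clear of the next group. In Mllt10, Dot1l, Aff1, Aff4 and Supt6 every group overlapped its neighbour in the order.

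A list of 40 other genes of the same pathways, 39 of them tested and Ell3 not, covered the rest of the super elongation complex, the DOT1L and MLL1 complexes, the PAF1 complex, P-TEFb control and other elongation factors. By edgeR none was called against WT at P0, after P0 induction at P28 or in the RLT Vav Txp group, while 4, 23 and 4 had an unadjusted p under 0.05. DESeq2 called 3, 6 and 0 of them and limma 0, 25 and 2. After E10.5 induction 18 of the 39 were called higher and 1 lower, with a median log2 fold change of 0.51. Of all genes 7.82% were called higher and the median was -0.10, and of the better expressed genes 24% were called and the median was 0.19. The core subunits of MLL1 complexes Wdr5 (0.74, adjusted p = 0.00739), Rbbp5 (0.69, 0.0166) and Ash2l (0.66, 0.00483) rose, as did Hcfc1 (1.17, 0.0127), whose product binds MLL. In the super elongation complex Aff3 (0.96, 0.0354), Ell (0.67, 0.0125) and the P-TEFb kinase Cdk9 (0.58, 0.00836) rose with Aff1, Aff4 and Mllt1. Of the PAF1 complex, which binds MLL and polymerase, Ctr9 (1.59, 0.012), Paf1 (0.48, 0.0275) and Cdc73 (0.51, 0.0402) rose. Among other factors Setd2 (0.97, 0.00863), Iws1 (0.68, 0.016), whose product binds that of Supt6, Nelfb (0.64, 0.0176) and Ssrp1 (0.73, 0.0181) rose, and Supt4a (-0.82, 0.0206) was the 1 gene that fell and was named after its value was seen. With length and GC offsets 7 of the 39 were called in place of 19. In the RLT Vav Txp group against E10.5-induced ME, 20 of the 39 were called lower and 3 higher, where 9.38% of all genes were called lower and 8.5% higher, and 30.9% of the better expressed genes were called.

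**Figure D5:**
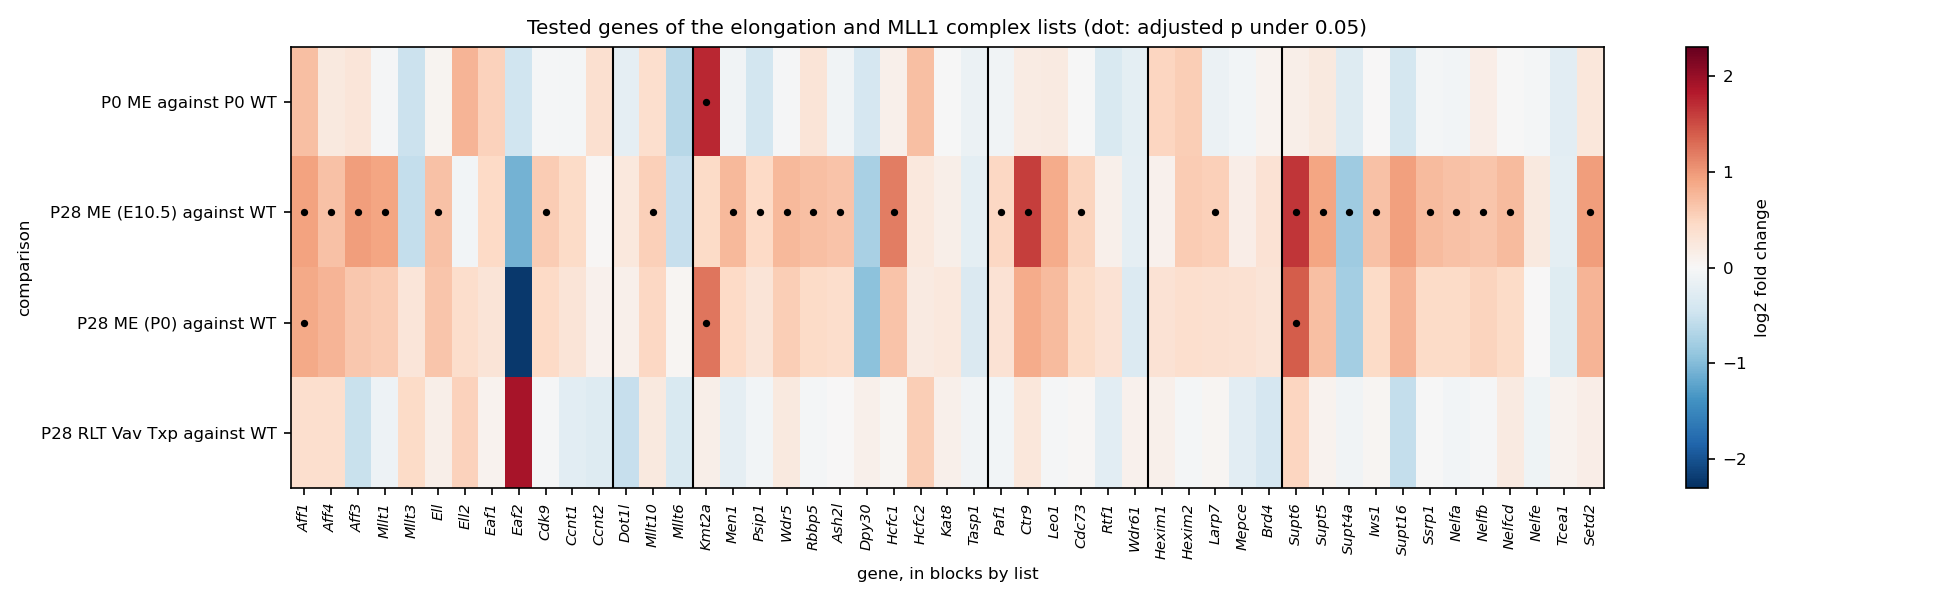
Log2 fold change against WT (colour) of the 10 genes and 39 tested pathway genes (horizontal axis, in blocks by list) in 4 comparisons (rows), with a dot where the adjusted p was under 0.05. The row for E10.5-induced ME at P28 carries 26 dots, 19 of them on pathway genes outside the 10, and in the other 3 rows only Kmt2a, Aff1 and Supt6 carry a dot.

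By the root mean square of the difference in log2 CPM over the 24 libraries after each gene's mean was removed, the genes most like Men1 among 9677 candidates were Cdca7l (0.142), Map4k1 (0.153) and Frmd8 (0.157), and those most like Mllt1 were Inpp5d (0.148), Nacc1 (0.156) and Msh6 (0.156). Those most like Psip1 were Larp7 (0.149), Anp32b (0.16) and Vrk3 (0.162). Kmt2a had no gene as close, with Baz2b (0.372), Kansl1l (0.423) and Hoxa10 (0.435) nearest, against its own SD of 0.702. The nearest for the others were Rnf34 for Mllt10 (0.174), Sf3b1 for Aff4 (0.172), Dock2 for Supt6 (0.209), Mark4 for Dot1l (0.216), Apaf1 for Aff1 (0.242) and N6amt1 for Mllt3 (0.287). Among the 10 genes the closest pairs were Dot1l with Men1 (0.269), Men1 with Psip1 (0.279) and Mllt1 with Men1 (0.283), and the farthest was Mllt3 with Supt6 (0.973). These values share libraries, and genes are not independent replicates.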

How the data were processed

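Gene-level read counts of 24 bulk RNA-seq libraries in 6 groups of 4 were deposited by the authors as raw counts in 1 table. Per the labels' protocols, RNA was extracted with the Qiagen RNeasy Plus kit and libraries used Clontech SMARTer chemistry. The submitters' processing notes name STAR 2.7.9a, Subread, featureCounts 2.0.3 and GRCm38 without their roles. The strand setting, the treatment of multi-mapping reads and the annotation are not given in the sources used here. Of 55774 rows, 287 identical repeats were dropped.

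Genes were kept by edgeR's filterByExpr (minimum count 10). edgeR 4.0.16 in R 4.3.3 (robust quasi-likelihood, TMM, 1 mean per group, 18 residual degrees of freedom) was fitted to all libraries for 9 comparisons, with Benjamini-Hochberg adjustment over 23059 genes. limma 3.58.1, DESeq2 1.42.0, other scalings and filters, offsets for length and GC, a replicate block and left-out libraries were alternatives. The scripts were tested on simulated counts. Intervals are at 95%. Unless another fit is named, p-values set a group difference against a spread between libraries estimated over all 6 groups. All 10 genes are accounted for in every comparison, by name or within a range over the genes not named. Of the other lists, at most 4 called genes per list and comparison are named, those with the smallest adjusted p, and the 3 genes most like a gene are sought among those averaging 3 or more in log2 CPM. The genes and lists were chosen with earlier results of these data known.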

Additional observations from a re-analysis of the deposited data

Results flagged for a closer look

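Kmt2a in library 3 of P0-induced ME at P28 stood apart from the other 3 libraries, at 107.5 CPM against 93.5 to 95.6. Mllt1 in library 1 of the RLT Vav Txp group stood apart as the highest, at 97.3 CPM against 55.5 to 59.1, and Mllt10 in library 4 of that group as the lowest, at 41.8 CPM. These were 3 of 60 sets of 4 libraries checked by Dixon's criterion, which chance passes in about 1 of 20 sets.

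The ME effect differed between P28 and P0 for Kmt2a, by -1.31 on the log2 scale (adjusted p = 0.017), and for Psip1, by 0.88 (adjusted p = 0.0407). Both values come from the interaction term of edgeR's quasi-likelihood fit to all 24 libraries in 6 groups. With only the 4 groups compared the adjusted p was 0.0591 for Kmt2a and 0.0585 for Psip1. Age and tissue cannot be told apart in them.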

How the results depend on the processing

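Every result that changed direction was of a gene not called in that comparison, and no called gene changed direction in the alternatives run. The causes of these changes were not tested. The smallest count of any of the 10 genes was 598, so counting error was small at this depth. The offsets, fitted from the same libraries, remove trends on length and GC whatever their source. The fits without the 3 scattered libraries, without both P0 libraries numbered 1, and with length or GC offsets alone were chosen after seeing the data.

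The number of the 10 genes called was 1 at P0 against WT, 7 after E10.5 induction against WT, 3 after P0 induction against WT, 0 between induction times, 6 for RLT Vav Txp against E10.5-induced ME, 1 between ages in WT and 2 for the difference in ME effect. It moved to 4 and 1 (E10.5 against WT and the difference in effect) with plain library totals, and to 1 for the difference in effect with RLE. Without a filter it was 3 for E10.5 against WT, 3 for RLT Vav Txp against E10.5, 0 between ages in WT and 1 for the difference in effect. With length and GC offsets it was 3, 0 and 0 for E10.5 against WT, P0-induced against WT and ages in WT. With length offsets alone it was 3, 1, 3, 0 and 1 for E10.5 against WT, P0-induced against WT, RLT Vav Txp against E10.5, ages in WT and the difference in effect. Fitting only the groups compared gave 0 at P0, 7 for P0-induced against WT, 2 between induction times, 0 between ages in WT and 0 for the difference in effect. DESeq2 gave 3, 5 and 2 at P0, for P0-induced against WT and between induction times. limma gave 8, 4, 0 and 4 for P0-induced against WT, induction times, ages in WT and the difference in effect. Without the 3 scattered libraries it was 8, 2, 2 and 6 for P0-induced against WT, RLT Vav Txp against WT, induction times and the difference in effect, and without both P0 libraries numbered 1 it was 5 and 1 for P0-induced against WT and induction times.

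Leaving out 1 library gave 1 to 1 genes called at P0, 3 to 6 for E10.5 against WT, 1 to 4 for P0-induced against WT, 0 to 0 for RLT Vav Txp against WT, 0 to 0 between induction times, 2 to 7 for RLT Vav Txp against E10.5 (7 without RLT Vav Txp library 1), 0 to 1 between ages in WT, 4 to 6 between ages in ME and 0 to 5 for the difference in effect (5 without P0 WT library 4, 0 without E10.5-induced ME library 1 or 2 at P28).

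Replicate numbers were not taken to pair the libraries, since in no comparison did every pair correlate over 0.1. Between P0 ME and P0 WT the correlations were 0.66, 0.0531, 0.371 and 0.464 for numbers 1 to 4, and numbers 1, 3 and 4 matched best with their own number. Over all comparisons 8 of 24 same-numbered pairs had deviations correlated over 0.1 (range -0.394 to 0.66), and 5 of 24 matched best with their own number. The replicate block over the 20 numbered libraries gave 1 gene called at P0, 8 for E10.5 against WT, 3 for P0-induced against WT, 0 between induction times, 0 between ages in WT, 6 between ages in ME and 2 for the difference in effect. The same libraries without the block gave 1, 8, 4, 0, 1, 5 and 2. With the block and the offsets together it was 2, 2, 1 and 0 at P0, for E10.5 against WT, for P0-induced against WT and between ages in WT. The RLT Vav Txp libraries carry no number.

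Log2 fold changes that changed sign were, with plain totals, Mllt1 at P0 (0.012), Mllt10 and Aff1 between induction times (0.034 and 0.074), Mllt3 between ages in WT (0.048) and Mllt10 for the difference in effect (-0.041). With length and GC offsets they were Kmt2a and Dot1l for E10.5 against WT (-0.11 and -0.43), Dot1l for P0-induced against WT (-0.46), Mllt10 and Aff1 between induction times (0.0057 and 0.044), Kmt2a and Aff4 for RLT Vav Txp against E10.5 (0.22 and 0.073), Aff4 between ages in ME (-0.044), and Mllt10 and Aff1 for the difference in effect (-0.053 and -0.23). With length alone they were Dot1l for E10.5 against WT (-0.16), Mllt3 and Dot1l for P0-induced against WT (-0.094 and -0.21), Aff1 between induction times (0.026), Kmt2a and Aff4 for RLT Vav Txp against E10.5 (0.083 and 0.093), Psip1 between ages in WT (-0.025), Aff4 between ages in ME (-0.077), and Mllt10 and Aff1 for the difference in effect (-0.047 and -0.084). With GC alone they were Mllt1 at P0 (0.049), Dot1l for P0-induced against WT (-0.062) and Aff1 between induction times (0.019). Fitting only the groups compared turned Aff1 between induction times (0.015), and limma turned Mllt1 at P0 (0.0070). The replicate block turned Mllt1 at P0 (0.0083). The block with offsets turned Mllt1 at P0 (0.0060), Kmt2a and Dot1l for E10.5 against WT (-0.11 and -0.43), Dot1l for P0-induced against WT (-0.46), Mllt10 and Aff1 between induction times (0.019 and 0.045), Aff4 between ages in ME (-0.035), and Mllt10 and Aff1 for the difference in effect (-0.067 and -0.23). Without the 3 scattered libraries they were Aff4 and Supt6 at P0 (-0.067 and -0.38) and Mllt1 between ages in WT (-0.022), and without both P0 libraries numbered 1 Mllt3 and Aff4 between ages in WT (0.036 and 0.095).

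Leaving out 1 library spread Mllt1 at P0 from -0.35 to 0.22, Men1 from -0.22 to 0.0023 and Supt6 from -0.20 to 0.33. It spread Mllt3, Aff4 and Mllt1 between ages in WT from -0.23 to 0.037, -0.35 to 0.099 and -0.050 to 0.55, Aff1 between ages in ME from -0.23 to 0.062, Aff1 between induction times from -0.12 to 0.0031, Psip1 for RLT Vav Txp against WT from -0.24 to 0.026 and Mllt3 for the difference in effect from -0.20 to 0.064. Plain totals shifted the median of all genes by -0.13 for E10.5 against WT, -0.20 for the difference in effect and 0.15 between ages in WT.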

Other observations

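Genes known as targets of MLL fusions were measured in the same fits. At P0, 4 of 11 were called higher in ME than in WT by edgeR, where 0.642% of all genes were called: Hoxa10 (1.54, adjusted p = 0.000474), Hoxa9 (1.03, 0.0026), Mef2c (0.77, 0.0223) and Hoxa7 (0.88, 0.0497). After E10.5 induction at P28, 4 of 11 were called higher than WT, where 12.3% of all genes were called and 7.82% called higher: Igf2bp2 (1.62, 0.00565), Hoxa10 (0.77, 0.02), Mef2c (0.52, 0.0334) and Hoxa9 (0.53, 0.041). After P0 induction edgeR called 0 of 11, and 7 had an unadjusted p under 0.05, where 1.57% of all genes were called. In the RLT Vav Txp group 4 of 11 were called lower than WT, where 4.12% of all genes were called, among them Hoxa7 (-0.91, 0.0111), Igf2bp2 (-1.52, 0.0112) and Mef2c (-0.69, 0.0118), while Pbx3 was called higher (1.37, 0.0132).

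Of 12 other genes that MLL is known to fuse with, 4 were called higher after E10.5 induction, where 7.82% of all genes were called higher and 24% of the better expressed genes were called: Ep300 (0.96, 0.00863), Ell, Aff3 and Septin9 (0.67, 0.045). After P0 induction Ep300 was the 1 called (0.88, 0.0492). In the RLT Vav Txp group Crebbp was called lower (-0.82, 0.017) and Gas7 higher (3.03, 0.0456) than WT.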
